A study of Mus musculus with 3 samples.

Results

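The 9 genes described here, Cyp2e1, Cyp1a2, Cyp3a11, Cyp2c29, Por, Ugt1a1, Ugt2b5, Sult1a1 and Sult2a8, encode enzymes that metabolize paracetamol (acetaminophen, APAP) or belong to the families that do. They were taken by gene symbol from the 34099 genes of a single-cell RNA-sequencing study of mouse liver, in which transcripts were counted as unique molecular identifiers (UMIs). Each of 3 mice had received 500 mg/kg APAP and, 6 h later, an infusion of mesenchymal stromal cells (MSCs) engineered to display bispecific polyvalent peptides, of native MSCs, or of PBS alone. The livers were collected on day 4. Every group is 1 library from 1 mouse and all 3 mice had APAP, so there is neither a replicate check nor an uninjured baseline, and every interval below is a 95% interval that covers counting error only. No test between conditions is possible and none is given. Mouse strain and age were not used here. Each library held 1 to 5 UMIs of Xist and 5969 to 7156 UMIs of the Y-linked gene Ddx3y, so the livers had the same sex-linked pattern.

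Hepatocytes clear most of a paracetamol dose by glucuronidation, through UDP-glucuronosyltransferases such as UGT1A1, and by sulfation, through phenol sulfotransferases such as SULT1A1. Cytochrome P450 enzymes, chiefly CYP2E1 with CYP1A2 and CYP3A members, oxidize a smaller part to the reactive quinone imine that glutathione neutralizes and that kills the cell once glutathione is spent. NADPH-cytochrome P450 oxidoreductase, the product of Por, hands electrons to all microsomal P450s. CYP2E1 and CYP1A2 are made mainly by the hepatocytes around the central vein, which is also where an overdose destroys tissue.

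Hepatocyte barcodes were defined by Alb, the albumin transcript, at 1% or more of the UMIs, with haemoglobin transcripts under 10% and 15 markers of other cells together under 0.5%. There were 1298 such barcodes in the engineered MSC library, 110 in the native MSC library and 25 in the PBS library, of 11028, 11479 and 10739 barcodes in all. Their median depth was 987 UMIs with engineered MSC, 5839.5 with native MSC and 2298 with PBS. A set of 10 abundant hepatocyte transcripts that includes Alb, used below as the reference for hepatocyte RNA, came to 59415, 100297 and 68797 CPM (the UMIs of a gene, or of a set, relative to all UMIs summed over these barcodes) in these barcodes, against 3911, 1028 and 355 CPM in the other named cells of the same libraries. The threshold falls in a continuum, since 1155, 96 and 37 further barcodes held Alb at 0.5% to 1%, and 907, 48 and 15 of those inside held 1% to 2%. Over all barcodes the median Alb share was 0.266% with engineered MSC, 0.0350% with native MSC and 0% with PBS. The threshold thus lies nearest to the level of other barcodes in the engineered MSC library. In a joint clustering, 621, 64 and 16 of the hepatocyte barcodes lay in hepatocyte-like clusters and 123, 11 and 2 in clusters named for another class, of which 76, in the engineered MSC library, were B-cell-like. The rest lay in unnamed clusters or, with over 20% mitochondrial UMIs (206, 20 and 3 barcodes), were not clustered. The make-up of the hepatocyte barcodes and their depth differ between libraries together with the levels below. Their part in the results was not tested. Between 39 and 46 barcode sequences were shared by any pair of libraries. A lower yield of hepatocytes and a lower survival of hepatocytes cannot be told apart in these shares.

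In hepatocyte barcodes, the P450s Cyp2e1, Cyp1a2, Cyp3a11 and Cyp2c29 and the glucuronosyltransferase Ugt2b5 were higher in both MSC libraries than in the PBS library. Sult1a1 was called higher than with PBS in the native MSC library and not in the engineered MSC library. Sult2a8 was called higher in the engineered MSC library and not in the native MSC library. Por was not called in either. Over all genes with 20 or more UMIs in the pair of libraries, 8.91% were more than 2-fold higher with engineered MSC than with PBS and 13.4% more than 2-fold lower, with an interval that left out 1. Of the 8 members counted, 6 were higher and none was lower. For native MSC over PBS, the background was 7.55% higher and 18.2% lower, and again 6 of the 8 members were higher and none lower. The median log2 ratio of the members was 2.26 for engineered MSC over PBS and 1.78 for native MSC over PBS, beside medians of -0.18 and -0.41 over all genes counted. The 2 comparisons share the PBS library.

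**Figure D1:**
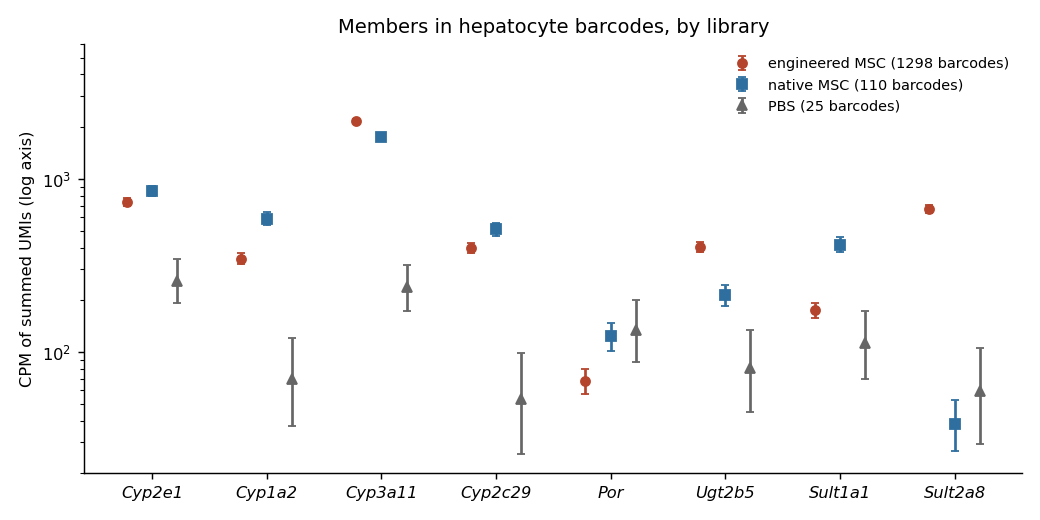
Level of 8 members in hepatocyte barcodes (CPM of summed UMIs, log axis) in the engineered MSC, native MSC and PBS libraries. Bars are exact Poisson 95% intervals and cover counting error only. Cyp3a11 stands at 2150, 1736 and 237 CPM, and Sult2a8 at 666, 38.2 and 59.2 CPM. Ugt1a1, with 8, 3 and 0 UMIs, is left out.

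Cyp3a11, a CYP3A enzyme of broad drug specificity, had the highest level of the members in the hepatocyte barcodes of both MSC libraries. Its level was 2150 CPM (2090 to 2211) in the engineered MSC library, 1736 CPM (1653 to 1822) in the native MSC library and 237 CPM (172 to 318) in the PBS library. The ratio to PBS was 9.09 (6.76 to 12.5) for engineered MSC and 7.34 for native MSC. Cyp3a11 was seen in 85.7% of engineered MSC hepatocyte barcodes, but also in 75.6% of that library's T-cell-like cells, which are deeper, so its presence in a barcode does not mark a cell that makes it. Thinned to 1000 UMIs per barcode, the shares were 76.5% of hepatocyte barcodes and 29.1% of T-cell-like cells.

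Cyp2e1, the main source of the toxic quinone imine, reached 734 CPM (700 to 770) with engineered MSC, 849 CPM (792 to 910) with native MSC and 258 CPM (190 to 342) with PBS. The PBS value rests on 1 barcode. That barcode, with 37187 UMIs, held 41 of the 48 Cyp2e1 UMIs of the PBS library's hepatocyte barcodes, and Cyp2e1 was seen in 4 of the 25. With that barcode the ratio to PBS was 2.85 (2.14 to 3.87) for engineered MSC and 3.29 (2.46 to 4.50) for native MSC, which are log2 ratios of 1.51 and 1.72. Without it the log2 ratios were 3.96 and 4.17. It held 67 of the 187 member UMIs in PBS hepatocyte barcodes, 35.8%, and 14 of the 25 Por UMIs.

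Cyp1a2, an oxidase of aromatic amines and caffeine that also acts on paracetamol, stood at 345 CPM (322 to 370) with engineered MSC, 588 CPM (540 to 639) with native MSC and 69.9 CPM (37.2 to 120) with PBS. It was 4.94 times (2.87 to 9.32) the PBS level with engineered MSC and 8.41 times with native MSC. Cyp2c29, a mouse CYP2C enzyme, followed the same order, at 399 CPM (374 to 426), 511 CPM (466 to 558) and 53.8 CPM (25.8 to 98.9). Its ratios to PBS were 7.43 (4.02 to 15.5) and 9.50. The engineered over native ratios were 0.865 (0.794 to 0.942) for Cyp2e1, 0.587 (0.526 to 0.656) for Cyp1a2 and 0.782 (0.700 to 0.875) for Cyp2c29, and none passed 2-fold. Scaled to the reference transcripts they were 1.46 (1.34 to 1.59), 0.991 (0.888 to 1.11) and 1.32 (1.18 to 1.48), so the order of the MSC libraries for Cyp2e1 and Cyp2c29 turns with the scaling. That scaling moved the median log2 ratio of all genes from 0.35 to 1.10 for engineered over native MSC, from -0.41 to -0.95 for native MSC over PBS and from -0.18 to 0.03 for engineered MSC over PBS. On it, 6 of 8 members were higher and none lower with engineered MSC than with PBS, beside 12.0% and 9.87% of all genes, and 5 were higher and 1 lower with native MSC than with PBS, beside 3.23% and 37.9%. Engineered over native MSC, 3 of 8 were higher and none lower, beside 53.9% and 0.988%.

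Por lay at 67.6 CPM (57.4 to 79.1) with engineered MSC, 123 CPM (102 to 148) with native MSC and 134 CPM (87.0 to 198) with PBS. The engineered MSC ratio to PBS was 0.503 (0.328 to 0.801) and the native MSC ratio 0.916 (0.591 to 1.47). Without the PBS barcode named above, the log2 ratios were -0.13 and 0.74 in place of -0.99 and -0.13. Por was the one counted member whose ratio to PBS was under 1 with engineered MSC.

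Among the conjugating enzymes, Ugt2b5, a glucuronosyltransferase of steroids and xenobiotics, stood at 403 CPM (377 to 430) with engineered MSC, 212 CPM (184 to 244) with native MSC and 80.7 CPM (45.1 to 133) with PBS. Its ratio to PBS was 5.0 (3.01 to 8.96) with engineered MSC and 2.63 with native MSC, or 5.78 and 1.81 when scaled to the reference transcripts. Ugt1a1, which conjugates bilirubin as well as drugs, gave 8, 3 and 0 UMIs in hepatocyte barcodes and 40, 12 and 1 UMIs in the whole libraries. A count of 0 allows up to 16.1 CPM at 3 counts in the PBS barcodes, so no difference in Ugt1a1 could be detected at this depth. In the GENCODE M21 annotation 58.9% of its exonic bases, and the last 300 bases of its transcript without a mismatch, are shared with 8 other Ugt1a genes. A 3' library cannot assign such reads to 1 of these genes, so the low count describes the counting of Ugt1a1 and not the amount of UGT1A transcripts.

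Sult1a1, the main sulfotransferase of paracetamol and other phenols, stood at 174 CPM (158 to 192) with engineered MSC, 415 CPM (375 to 458) with native MSC and 113 CPM (69.9 to 173) with PBS. It was 3.68 times as high with native MSC as with PBS, whereas the engineered MSC ratio of 1.54 (0.997 to 2.52) did not leave out 1. Directly compared, engineered MSC had 0.420 times (0.365 to 0.484) the native MSC level, and 0.709 times (0.616 to 0.818) when both were scaled to the reference transcripts, which is no longer more than 2-fold.

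Sult2a8, a mouse sulfotransferase of bile acids, was the member that set the engineered MSC library apart. It reached 666 CPM (633 to 701) with engineered MSC, against 38.2 CPM (26.8 to 52.9) with native MSC and 59.2 CPM (29.5 to 106) with PBS. Engineered over PBS it was 11.3 (6.28 to 22.6), and engineered over native 17.4 (12.5 to 25). The native MSC ratio to PBS was 0.646 (0.322 to 1.41), and 0.443 (0.221 to 0.965) when scaled to the reference transcripts. At 1000 UMIs per barcode it was seen in 44.4% (40.5% to 48.4%) of 639 engineered MSC hepatocyte barcodes, 2.20% (0.267% to 7.71%) of 91 with native MSC and 15% (3.21% to 37.9%) of 20 with PBS, beside 3.45% of T-cell-like cells of the engineered MSC library. For engineered over native MSC, 18.9% of all genes were more than 2-fold higher and 4.42% lower. Sult2a8 was the 1 member of the 8 that was higher, and Sult1a1 the 1 that was lower.

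For 3 P450s and for Sult2a8, the member with the highest engineered over native ratio, the 250 bases before the annotated transcription start are shown, from RefSeq on GRCm38.p6, an older build than the GRCm39 of the counts. Capitals mark matches on either strand to the TATA box TATAAA. They also mark the nuclear receptor half-site AGGTCA. The last motif marked is the CCAAT box. Cyp3a11 and Cyp2c29 each hold AGGTCA, at positions -162 and -154 from the start on the strand shown.
Cyp2e1, chr7:140763569-140763818, plus strand: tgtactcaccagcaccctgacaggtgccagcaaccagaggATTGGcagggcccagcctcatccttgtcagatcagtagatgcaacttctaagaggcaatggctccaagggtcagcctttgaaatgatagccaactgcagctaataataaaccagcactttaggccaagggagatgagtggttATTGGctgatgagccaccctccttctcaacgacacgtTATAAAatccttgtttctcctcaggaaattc
Cyp3a11, chr5:145879855-145880104, minus strand: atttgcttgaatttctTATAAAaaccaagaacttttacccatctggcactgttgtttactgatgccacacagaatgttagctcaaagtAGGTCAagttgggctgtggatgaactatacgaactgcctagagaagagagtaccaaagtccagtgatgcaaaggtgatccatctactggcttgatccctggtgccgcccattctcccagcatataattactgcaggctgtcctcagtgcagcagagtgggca
Cyp2c29, chr19:39286835-39287084, plus strand: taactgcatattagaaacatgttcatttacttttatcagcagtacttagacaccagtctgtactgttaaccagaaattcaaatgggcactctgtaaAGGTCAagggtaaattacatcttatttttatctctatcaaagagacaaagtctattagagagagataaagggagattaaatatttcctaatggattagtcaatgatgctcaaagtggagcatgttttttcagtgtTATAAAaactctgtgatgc
Sult2a8, upstream start, chr7:14446588-14446837, minus strand: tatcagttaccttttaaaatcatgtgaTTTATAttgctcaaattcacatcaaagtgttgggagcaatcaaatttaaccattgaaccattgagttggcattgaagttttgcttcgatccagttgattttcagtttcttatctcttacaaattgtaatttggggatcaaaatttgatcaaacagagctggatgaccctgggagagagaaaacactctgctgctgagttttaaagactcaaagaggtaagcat
Sult2a8, downstream start, chr7:14438552-14438801, minus strand: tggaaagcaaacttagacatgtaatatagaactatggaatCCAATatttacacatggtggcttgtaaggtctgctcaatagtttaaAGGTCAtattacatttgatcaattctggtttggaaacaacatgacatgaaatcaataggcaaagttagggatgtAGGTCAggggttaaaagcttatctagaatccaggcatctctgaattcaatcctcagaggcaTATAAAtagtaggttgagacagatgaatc
TATAAA was found before 5 of the 9 members and before 12.4% of 32851 mouse promoters of the same length, AGGTCA before 4 of 9 and 14.0%, and CCAAT before 4 of 9 and 33.8%. A member counted if any of its starts held the motif, while the background counts each promoter singly. Sult2a8 had AGGTCA and CCAAT only before its downstream start. TATAAA lay far from the start before Cyp3a11 (-234) and the upstream start of Sult2a8 (-223). Before Cyp2e1 it lay at -31, and before Cyp1a2 and the downstream start of Sult2a8 at -29. Before Cyp2c29 it lay at -19. GTTAAT, an HNF1 half-site, was found before 2 of 9 members (Ugt1a1 and Sult1a1) and 6.43% of promoters, and GCGTG, the core of the xenobiotic response element that the aryl hydrocarbon receptor binds, before 1 of 9 (Por) and 28.2%. These are matches of letters in a short window, and no binding was measured. No match to 1 motif overlapped a match to another. The Sult2a8 annotation has 2 starts, and the 3' counts do not show which was used.

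Because the PBS library gave so few hepatocyte barcodes, the members were also compared in the hepatocyte-like clusters, which held 1648, 819 and 344 cells. These cells were poorer in hepatocyte RNA, with reference transcripts at 43279, 45634 and 26385 CPM. In them, 6 of 8 members were more than 2-fold higher and none lower with engineered MSC than with PBS, beside 9.42% and 11.9% of all genes. With native MSC 5 of 8 were higher and 1, Sult2a8, was lower than with PBS (0.359, 0.286 to 0.452), beside 5.61% and 11.1% of genes. Engineered over native MSC, 4 of 8 were higher and 1 lower, beside 11.0% and 6.67%. Cyp2e1 stood at 442 CPM with engineered MSC, 168 CPM with native MSC and 24.5 CPM with PBS, which gave ratios to PBS of 18.0 (13 to 25.8) and 6.87 (4.93 to 9.86). Cyp3a11 was 8.33 times the PBS level (6.98 to 10.0) with engineered MSC and 3.46 times (2.89 to 4.18) with native MSC. Sult1a1, at 341 CPM with engineered MSC, 819 CPM with native MSC and 362 CPM with PBS, was called higher with native MSC (2.26, 2.07 to 2.47) and not with engineered MSC (0.942, 0.857 to 1.04). In the shared cluster described next it was called with both, at 744, 819 and 363 CPM. Sult2a8 is among the leading genes of one of these clusters, of which 1502 of the cells were from the engineered MSC library, so its ratio in this set of cells is set in part by the clustering.

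The libraries share 1 hepatocyte-like cluster, with 146, 818 and 343 cells, which is led by the acute-phase genes Saa2, Saa1, Orm2 and Orm1. It holds 818 of the 819 native MSC and 343 of the 344 PBS cells of the hepatocyte-like clusters. The native MSC ratios to PBS here therefore come from nearly the same cells as above. Within the shared cluster the P450s were higher than with PBS. Cyp2e1 was at 11.2 times (7.73 to 16.9), Cyp1a2 5.83 times (4.08 to 8.53), Cyp3a11 5.88 times (4.84 to 7.20) and Cyp2c29 8.15 times (5.06 to 13.8) the PBS level in engineered MSC cells. The native MSC ratios for these were 7.91, 4.30, 3.47 and 9.35. Sult2a8 did not follow. It stood at 51.8 CPM with engineered MSC, 30.6 CPM with native MSC and 83.6 CPM with PBS, an engineered over PBS ratio of 0.620 (0.445 to 0.854). The cluster led by Sult2a8 had taken 1502 of the 1648 engineered MSC hepatocyte-like cells. This ratio of Sult2a8 is therefore also set in part by the clustering. In the shared cluster 6 of 8 members were higher and none lower with engineered MSC than with PBS, beside 6.53% and 8.13% of all genes. With native MSC 5 were higher and 1 lower than with PBS, beside 5.59% and 10.9%. Engineered over native MSC, 1 (Ugt2b5, 2.10) was higher and none lower, beside 5.40% and 2.79%.

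**Figure D2:**
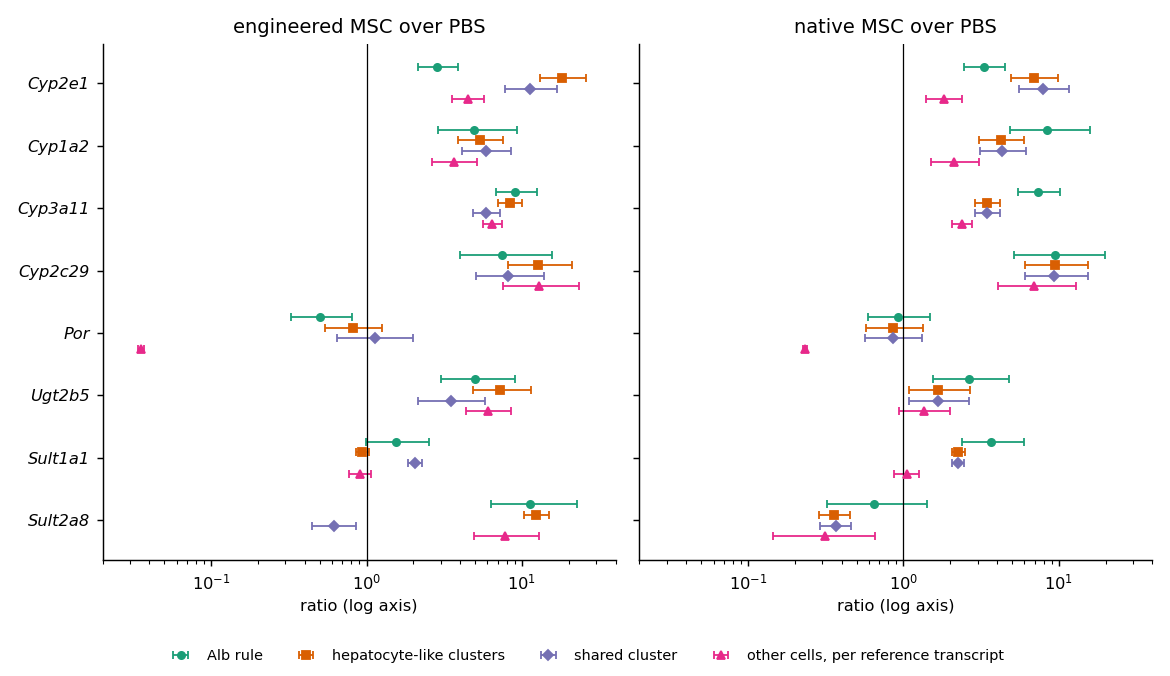
Ratio of member levels to PBS (log axis) for engineered MSC and native MSC, in hepatocyte barcodes by the Alb rule, in hepatocyte-like clusters, in the cluster shared by the libraries, and in other cells per hepatocyte reference transcript. Bars are exact 95% intervals and cover counting error only. The P450s lie right of 1 in each set, while Sult2a8 with engineered MSC lies at 11.3 in hepatocyte barcodes and at 0.620 in the shared cluster. The sets are not independent. The shared cluster holds nearly all native MSC and PBS cells of the hepatocyte-like clusters. Sult2a8 leads the cluster that took most engineered MSC cells. RNA in other cells may be carried over from hepatocytes of the same library.

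Hepatocyte barcodes were divided at a 1% share of mitochondrial transcripts, which gave 510 mitochondria-poor and 788 mitochondria-holding barcodes with engineered MSC, 68 and 42 with native MSC, and 18 and 7 with PBS. The PBS library has too few for ratios between libraries within each class. Malat1, a nuclear RNA, was at 1462 CPM in mitochondria-poor and 4172 CPM in mitochondria-holding barcodes with engineered MSC, and at 266 and 3842 CPM with native MSC, so the poor class is low in a nuclear transcript as well. In the engineered MSC library no counted member differed more than 2-fold between the classes, beside 3.86% of all genes higher and 12.8% lower in the poor class. Cyp2e1 was at 752 and 721 CPM, a ratio of 1.04 (0.947 to 1.15), and Cyp3a11 at 1973 and 2286 CPM, a ratio of 0.863 (0.815 to 0.914). With each barcode counted alike, the mean of Cyp3a11 was 2596 CPM in the poor and 2285 CPM in the holding class. Its direction therefore turns with the weighting of barcodes. Sult2a8 was higher in the poor class, at 833 and 537 CPM (1.55, 1.40 to 1.72), and so was Sult1a1, at 210 and 147 CPM (1.43, 1.17 to 1.75). Scaled to non-mitochondrial UMIs, these ratios were 1.26 (1.14 to 1.39) and 1.16 (0.950 to 1.42).

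In the native MSC library the classes differed more, over a background of 15.5% of genes higher and 26.9% lower in the poor class. Of the 8 members counted, 1 was called higher and 2 lower, which is near those shares. Sult1a1 was 2.52 times (1.96 to 3.28) as high in mitochondria-poor barcodes, at 538 against 213 CPM. Por was lower there, at 51.2 against 241 CPM (0.212, 0.135 to 0.325), and so was Ugt2b5, at 142 against 328 CPM (0.432, 0.322 to 0.577). With each barcode counted alike, the means were 83.4 against 156 CPM for Por and 156 against 245 CPM for Ugt2b5. Neither pair of means is 2-fold apart. For Sult1a1 they were 501 against 185 CPM, which is more than 2-fold. Compared within a class, the engineered over native ratio of Sult2a8 was 18.8 (12.7 to 28.9) in the poor and 19.1 (10.4 to 40.1) in the holding barcodes. Sult1a1 was lower with engineered MSC in the poor class (0.390, 0.326 to 0.466) and less so in the holding class (0.689, 0.525 to 0.911). Por was at 0.301 (0.222 to 0.408) in the holding class, where the shared cluster gave a log2 ratio of 0.08, and at 1.19 (0.757 to 1.91) in the poor class. The members called were 2 of 8 higher and 1 of 8 lower in the poor class, beside 29.4% and 4.66% of all genes, and 1 of 8 in each direction in the holding class, beside 10.5% and 6.37%.

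In finer steps of the mitochondrial share in the engineered MSC library, both sulfotransferases were lowest in the last step. Sult1a1 was at 197, 224 and 232 CPM in barcodes with under 0.25%, 0.25% to 1% and 1% to 5% of mitochondrial UMIs, and at 115 and 66.3 CPM at 5% to 20% and over 20%. Sult2a8 was at 719, 953, 720, 553 and 314 CPM over the same steps. Cyp3a11 was at 1856, 2096, 1896, 2480 and 2627 CPM. Cyp2c29 was highest, at 575 CPM (508 to 648), in the last step, where 1 barcode held 91 of its 269 UMIs. Thinned to 1000 UMIs per barcode, Cyp2c29 was seen in 23.3% of barcodes there, beside 28.7% in the first step. Cyp2e1 was lowest in the middle step, at 794, 709, 581, 800 and 836 CPM. Cyp1a2 was highest in the first step, at 466, 247, 276, 373 and 380 CPM. Single barcodes weigh on these values. In the first step 1 barcode held 149 of the 407 Cyp2e1 UMIs and 1 held 82 of the 239 Cyp1a2 UMIs. In the last step 1 barcode held 163 of the 391 Cyp2e1 UMIs. Thinned to 1000 UMIs per barcode, Cyp2e1 was seen in 31.5%, 41.8%, 34.6%, 41.9% and 32.5% of barcodes. In summed CPM the P450s thus had no common course. Mitochondrial transcripts take up a median of 39.1% of the UMIs in the last step. Counted over non-mitochondrial UMIs, Sult1a1 was still at 118 there against 225 at 0.25% to 1%, Sult2a8 at 560 against 959, and Cyp3a11 at 4681 against 2107.

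**Figure D3:**
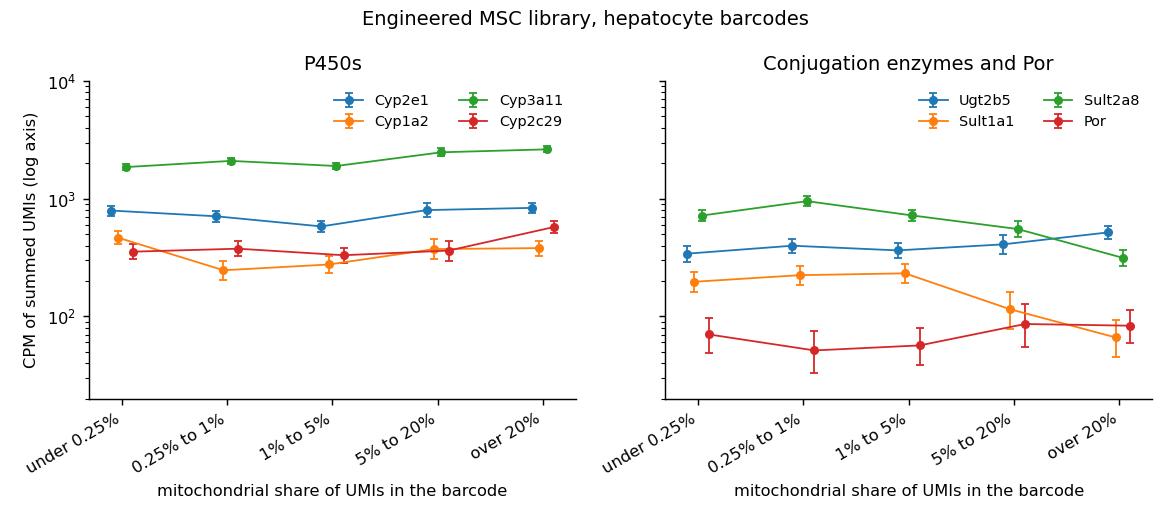
Level of 8 members (CPM of summed UMIs, log axis) in engineered MSC hepatocyte barcodes, by the share of mitochondrial UMIs in the barcode. Bars are exact Poisson 95% intervals. Sult1a1 lies at 232 CPM at 1% to 5% and 66.3 CPM over 20%, while Cyp3a11 lies at 1896 and 2627 CPM.

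The members varied widely among hepatocyte barcodes of the engineered MSC library. The tenth of barcodes with the most Cyp2e1 UMIs held 67.4% of them, and that share was 74.0% for Cyp1a2, 48.2% for Cyp3a11 and 52.0% for Sult2a8. Part of this is depth, since the deepest barcodes hold the most UMIs. At 1000 UMIs per barcode, the rank correlation of members with other genes over 639 barcodes and 1307 genes was weak, with 0.34 as the highest value. Sult2a8 was nearest to Fabp1 (0.34), Car3 (0.34) and Scp2 (0.30), Sult1a1 to Ass1 (0.30), Phyh (0.28) and Rida (0.26), and Cyp3a11 to Fgb (0.31), Alb (0.30) and Serpina3k (0.29). Cyp2c29 was nearest to Cyp3a11 (0.25), then to Apoa1 and Apoe (0.19 each), and Cyp2e1 to Apoe (0.21), Rbp4 (0.21) and Rgn (0.20). Ugt2b5 was nearest to Egfr (0.23), Mug1 (0.21) and Malat1 (0.18), and Cyp1a2 to Lamtor1 and Slco1b2 (0.16 each) and Fgl1 (0.15). All barcodes share 1 library and the counts are sparse, so these are descriptions.

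Position along the liver lobule was looked at through Glul, the glutamine synthetase of cells at the central vein, and Cyp2f2, a P450 of cells at the portal vein. In thinned engineered MSC barcodes, Cyp2e1 was at 667 CPM in the 48 with a Glul UMI and 528 CPM in the 591 without, a ratio of 1.26 (0.849 to 1.82), and at 515 against 545 CPM (0.945, 0.716 to 1.23) in those with and without Cyp2f2. All 9 members were read against both landmarks. Cyp2c29 was the 1 member whose interval left out 1, at 521 against 305 CPM (1.71, 1.08 to 2.61) with and without Glul. The intervals were not widened for the number of ratios read. Between libraries, Cyp2f2 moved with Sult2a8 and not with the P450s above, at 352 CPM with engineered MSC, 31.9 CPM with native MSC and 32.3 CPM with PBS.

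The other genes of drug metabolism were read from 7 lists, with up to 3 of the most abundant genes of each named. The counts stand beside the shares of all genes given above, 8.91% higher and 13.4% lower with engineered MSC than with PBS, and 7.55% and 18.2% with native MSC, and the counts of 0 or 1 in the lists of electron transfer and glutathione conjugation lie near them. Of 18 other P450s counted, 8 were more than 2-fold higher and 1 lower with engineered MSC than with PBS, and of 14 counted for native MSC, 5 were higher. Cyp2d9 stood at 458 CPM with engineered MSC, 206 CPM with native MSC and 96.8 CPM with PBS, and Cyp3a25 at 412, 297 and 64.5 CPM. Cyp2c70, a P450 that makes muricholic bile acids in mice, was at 466, 695 and 430 CPM and was not called against PBS. Of the 4 electron-transfer genes, which like Por serve the P450s, none was called with engineered MSC and 1, Cyb5a, with native MSC, at 2692, 4612 and 1775 CPM. Pgrmc1 was at 464, 894 and 527 CPM and Cyb5b at 482, 259 and 242 CPM.

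In glucuronidation, 6 of 10 genes counted were higher with engineered MSC than with PBS and 4 of 8 with native MSC, beside 8.91% and 7.55% of all genes. Ugt2b36 stood at 427, 345 and 177 CPM in engineered MSC, native MSC and PBS, while Ugp2 and Ugdh, which make the UDP-glucuronic acid that the transferases use, stood at 319, 247 and 285 CPM and at 200, 289 and 129 CPM. In sulfation, 2 of 5 were higher with engineered MSC and 1 of 3 with native MSC. Sult1d1 was at 155, 340 and 43.0 CPM, an order like that of Sult1a1, Papss2, which makes the sulfate donor, at 102, 93.4 and 48.4 CPM, and Sult1b1 at 30.1, 36.1 and 21.5 CPM. Of the genes of glutathione conjugation, which disposes of the quinone imine, 1 of 8 was higher and 1 lower with engineered MSC than with PBS, and 1 of 7 was higher with native MSC. Gsta3 stood at 3244, 4615 and 1275 CPM, Gstm1 at 2092, 4329 and 2587 CPM, and Gstp1 at 820, 866 and 586 CPM. The median log2 ratio of that list was 0.36 for engineered MSC over PBS, beside 2.26 for the members.

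Transporters were higher in 4 of 6 with each kind of MSC, beside 8.91% (engineered MSC) and 7.55% (native MSC) of all genes. Slco1b2, a hepatic uptake carrier, was at 507 CPM with engineered MSC, 412 CPM with native MSC and 10.8 CPM (2 UMIs) with PBS, a ratio of 47.2 (13 to 390) for engineered MSC. Abcc2, which exports conjugates into bile, was at 195, 224 and 69.9 CPM. Of 9 regulators counted, 3 were higher and 1 lower with engineered MSC than with PBS, and 1 of 8 was higher with native MSC. The 1 lower with engineered MSC and the 1 higher with native MSC lie near the shares of all genes, 13.4% and 7.55%. Hnf4a and Cebpa, factors that set hepatocyte identity, stood at 216, 84.9 and 96.8 CPM and at 278, 94.5 and 91.4 CPM, so unlike the P450s they were high with engineered MSC alone. Ppara was at 117, 86.0 and 26.9 CPM.

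Most UMIs of the members lay outside hepatocyte barcodes. In the engineered MSC library 22.8% of Cyp2e1 UMIs and 15.4% of Sult2a8 UMIs were in hepatocyte barcodes, and 52.5% and 76.8% once the hepatocyte-like clusters were added. For Por the shares in hepatocyte barcodes and clusters together were 4.48%, 1.66% and 0.288% with engineered MSC, native MSC and PBS. An expected level of carried-over RNA in each other class of 50 or more cells was therefore set from the library's own hepatocyte barcodes, scaled by the 10 reference transcripts. Dividing the members into Por and Sult1a1 against the rest was done after the values were seen.

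With the hepatocyte barcodes of the engineered MSC library as source, the median observed over expected level across 14 classes was 1.24 for Cyp2e1, 1.13 for Cyp1a2, 1.73 for Cyp3a11, 1.38 for Cyp2c29, 1.59 for Ugt2b5 and 0.651 for Sult2a8. Of the values for members other than Por and Sult1a1, 2 of 98 were more than 2-fold above expectation with engineered MSC, 1 of 77 with native MSC and 10 of 60 with PBS, where the source is 25 barcodes. These counts depend on the source. With the mitochondria-poor barcodes as the source they were 26 with engineered MSC and 7 with native MSC, and with the hepatocyte-like clusters, a source added after the data were seen, 45, 24 and 18. With the clusters as source the engineered MSC medians were 1.51 for Cyp2e1, 3.80 for Cyp3a11 and 0.298 for Sult2a8. The expected level of these members is therefore known only within such a range. Cyp2e1 in stellate-or-fibroblast-like cells was above expectation with both sources in each library, at 2.33 (1.83 to 2.92) with engineered MSC, 2.62 (1.43 to 4.42) with native MSC and 4.44 (1.55 to 10.4) with PBS from the hepatocyte barcodes, from 78, 14 and 6 UMIs.

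Por stood far above the level expected of carried-over RNA. It was more than 2-fold above in 13 of 14 classes with engineered MSC, 11 of 11 with native MSC and 10 of 10 with PBS, by medians of 14.2, 68.0 and 161 times, and in every class of each library, by medians of 42.2, 217 and 406 times, with the clusters as source. Macrophage-like cells held 186 CPM of Por with engineered MSC, 137 CPM with native MSC and 305 CPM with PBS, more than the hepatocyte barcodes of their own library. With native MSC, however, that value lay within the counting interval of the hepatocyte barcodes. Their mitochondria-poor part was at 51.2 CPM and their mitochondria-holding part at 241 CPM. Stellate-or-fibroblast-like cells were at 176, 159 and 162 CPM, and sinusoidal-endothelium-like cells at 40.4, 54.0 and 67.1 CPM.

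Sult1a1 depended on the source. In sinusoidal-endothelium-like cells it stood at 46.2 CPM with engineered MSC, 31.1 CPM with native MSC and 4.33 CPM with PBS. Set against the hepatocyte barcodes, that was 4.92 times (4.31 to 5.62), 9.54 times (6.51 to 13.6) and 8.67 times (4.87 to 15.8) the expected level. Set against the hepatocyte-like clusters, which hold more Sult1a1 per reference transcript, it was 1.83 times (1.66 to 2.01), 2.20 times (1.52 to 3.08) and 1.04 times (0.706 to 1.47). With the hepatocyte barcodes as source, Sult1a1 was more than 2-fold above expectation in 5 of 14, 6 of 11 and 6 of 10 classes. With the clusters it was so in 0, 2 and 0 classes, and more than 2-fold below in 9, 6 and 5.

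**Figure D4:**
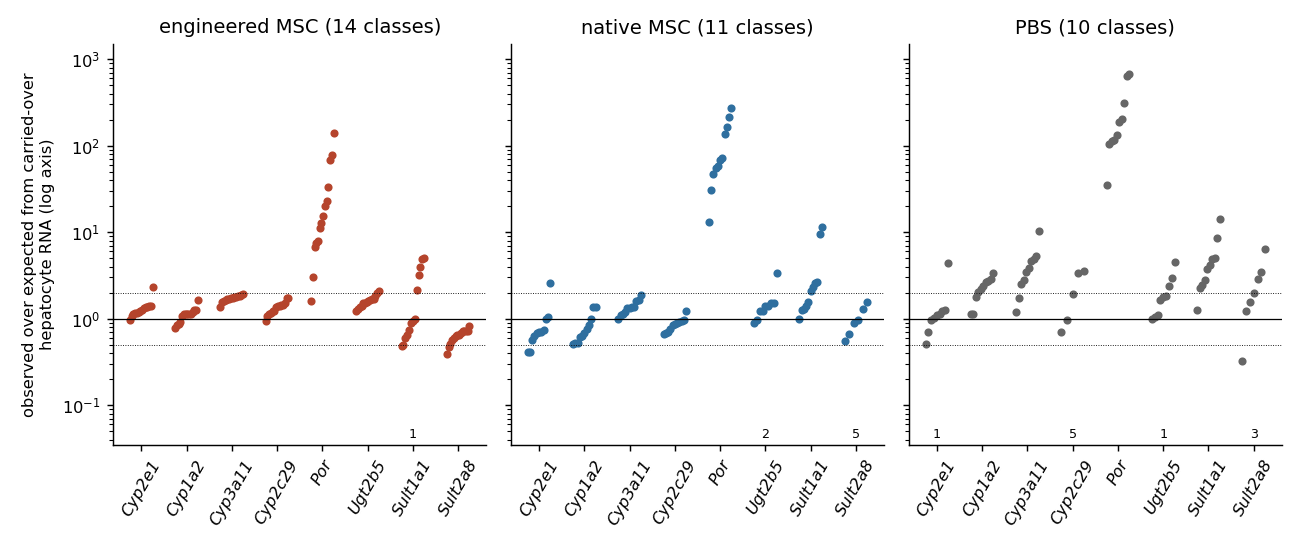
Observed level of each member in other cell classes over the level expected from carried-over hepatocyte RNA (log axis), 1 point for each class in the engineered MSC, native MSC and PBS libraries. Solid and dotted lines mark 1 and a 2-fold difference, and small digits above the axis count classes at 0. Por lies at medians of 14.2, 68.0 and 161, and Cyp2e1 at 1.24 with engineered MSC. The source of the expected level is the hepatocyte barcodes.

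The members were also read in cells of clusters named for other classes, outside the hepatocyte barcodes. Unnamed clusters, with 768, 1117 and 1094 cells, were left out. In 6642, 7407 and 8100 other cells, the members were counted per 1000 UMIs of the reference transcripts. Cyp3a11 was at 61.8 with engineered MSC, 22.7 with native MSC and 9.60 with PBS. Cyp2e1 was at 14.7, 5.97 and 3.29, Cyp2c29 at 8.07, 4.36 and 0.631, and Sult2a8 at 6.62, 0.269 and 0.857. The engineered over PBS ratios on this scale were 6.43 (5.62 to 7.41) for Cyp3a11, 4.47 (3.54 to 5.72) for Cyp2e1, 12.8 (7.59 to 23.4) for Cyp2c29, 3.65 (2.65 to 5.16) for Cyp1a2, 6.01 (4.39 to 8.44) for Ugt2b5 and 7.72 (4.92 to 12.9) for Sult2a8. The native over PBS ratios were 2.37, 1.81, 6.90, 2.13, 1.35 (0.940 to 1.98) and 0.314 (0.145 to 0.660). Engineered over native, Sult2a8 was at 24.6 (14.6 to 45.2). Sult2a8 was high with engineered MSC in the other cells as in the hepatocyte barcodes. The P450s were higher than with PBS in both MSC libraries in both sets of barcodes. This RNA may be carried over from hepatocytes of the same library, so the other cells are not an independent set.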

How the data were processed

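Livers of 3 mice were profiled with 10x 3' v3.1 chemistry. Per the submitters' processing notes, Cell Ranger 7.1.0 was run against GRCm39, and the deposited values are whole counts, as UMIs of 34099 genes in each barcode that its filter kept. The libraries held 62564254 (engineered MSC), 84950721 (native MSC) and 82247448 (PBS) UMIs, with at least 500 UMIs in each barcode. Barcodes with under 200 genes (296, 1135 and 70) and those scored highest by Scrublet, at 0.8% per 1000 barcodes (921, 856 and 911), were left out.

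Hepatocyte barcodes had no mitochondrial limit. For the joint Leiden clustering (scanpy 1.11.5, 2000 variable genes, 30 components, 15 neighbours, resolution 1), barcodes over 20% mitochondrial UMIs were left out as well, which left 9181, 9354 and 9540 cells, and clusters were named from marker lists. UMIs were summed and scaled to CPM with exact Poisson intervals, and each ratio has an interval from the exact conditional binomial. A gene counted with 20 UMIs or more in a pair, and was called when more than 2-fold different with an interval that left out 1. Ratios needed 20 barcodes in each library. All intervals and floors cover counting error only. The ratios were tested on simulated independent Poisson counts, which is the model the intervals assume. That test does not cover UMIs gathered in few barcodes, as with Cyp2e1 in the PBS library. Expected carry-over was the member's level in hepatocyte barcodes times the ratio of 10 reference transcripts (Alb, Apoa1, Apoa2, Apoc1, Apoc3, Ttr, Serpina1c, Fgb, Ambp and Rbp4). Named genes were the members, up to 3 genes of each list with the most UMIs in hepatocyte barcodes, the 3 genes most alike to each member with at least 200 UMIs, Glul and Cyp2f2. One gene that this rule names is not reported here. The members and lists were chosen with earlier results of these data known.

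Near-identical 3' ends were looked for with blastn 2.17.0+ in GENCODE M21 transcripts. The last 300 bases of Cyp3a11 hold 119 bases that are 97.5% identical to the pseudogene Cyp3a63-ps. Those of Cyp2e1 matched 433 other genes, the nearest being Washc4, over 203 bases at 93.6%. The search capped the matches listed, so that count may be too low. Cyp2c29 matched Cyp2c38 over 290 bases at 84.1%, Ugt2b5 matched Ugt2b38 over 303 bases at 87.5%, and Sult2a8 had 1 match, over 162 bases at 84.6%. Reads in such stretches may be split. No cell annotation of the authors was used.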

Additional observations from a re-analysis of the deposited data

Results flagged for a closer look

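Cyp2e1 was lower with engineered than with native MSC in mitochondria-poor hepatocyte barcodes, with a ratio of 0.752 (0.674 to 0.839), and higher in mitochondria-holding ones, with a ratio of 1.20 (1.03 to 1.40). What drew attention is that the 2 classes point in opposite directions. The difference between them was not tested, and neither ratio passed 2-fold. With Alb at 0.5% or more, the log2 ratio was -0.07 in the holding class, and with Alb at 2% or more it was 0.09 in the poor class. Scaled to the reference transcripts, the log2 ratios were 0.28 in the poor and 0.84 in the holding class. The opposite directions therefore depend on the threshold and on the scaling.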

How the results depend on the processing

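No paired analysis was possible because each group is 1 library, and for the same reason no replicate could be left out. Among member log2 ratios under the alternatives, 441 stayed within the counting interval, 149 moved beyond it and 2 changed direction. Those 2, in the shared hepatocyte-like cluster (chosen after seeing the data), were Sult2a8, engineered MSC over PBS, at -0.69 in place of 3.49, and Por, engineered over native MSC in mitochondria-holding barcodes, at 0.075 in place of -1.73. Sult2a8 leads the cluster that took most engineered MSC hepatocyte-like cells, so its change of direction is set in part by the clustering. Of the counts of members, 153 stayed within 1.5 times and 37 moved. The 6 members higher than PBS became 5 to 7 with engineered MSC and 5 to 6 with native MSC over the alternatives run. Lower than PBS with engineered MSC, 1 in place of 0 (Por) was called with Alb at 0.5% or more, with doublets kept, at 500 genes, at 1000 UMIs, and outside clusters of other classes (added after seeing the data). Lower than PBS with native MSC, 1 in place of 0 (Sult2a8) was called in hepatocyte-like clusters, with each barcode counted alike, with reference scaling and in the shared cluster. With each barcode counted alike, calls rested on the 2-fold limit and the 20 UMIs alone, without an interval, which is a looser rule. The hepatocyte-like clusters and the shared cluster hold nearly the same native MSC and PBS cells. Engineered over native MSC, the 1 lower became 3 with Alb at 0.5%, 2 with barcodes counted alike, and 0 with reference scaling and in the shared cluster, and the 1 higher became 2 with Alb at 2%, 4 in the clusters, 2 with barcodes counted alike and 3 with reference scaling. In the mitochondria-poor class, the 1 lower became 2 with Alb at 0.5%, and 0 with reference scaling and in the shared cluster, and the 2 higher became 4 in the clusters and 0 in the shared cluster. In the holding class, the 1 lower became 2 with Alb at 0.5%, with Alb at 2% and with barcodes counted alike, and 0 in the shared cluster, and the 1 higher became 3 in the clusters. For carry-over of members other than Por and Sult1a1, the engineered MSC count of 2 became 1 with Alb alone as reference, 26 with the mitochondria-poor source, 0 with the holding source and 45 with the hepatocyte-like clusters as source (added after seeing the data). The native MSC count of 1 became 7 with the poor source, 24 with the clusters and 2 in cells of 2000 UMIs or more (added after seeing the data), and the PBS count of 10 became 4 with the holding source and 18 with the clusters. With the clusters as source, the PBS count for Por and Sult1a1 became 10 in place of 16. The cause was not tested. The 25 PBS hepatocyte barcodes limit each ratio to PBS.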
